A study of Mus musculus with 15 samples.

Results

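The loci described here are gene models of the class TEC, which holds models that await experimental support, read in mouse whole blood by RNA sequencing. They were chosen by their counts. A model was taken where at least 10 counts were present in at least 7 of the 15 libraries, and 9330162G02Rik, a further TEC model that met this, was left out by the rule. That gave 686 loci of 3219 TEC models and of 55536 genes in the table. The blood came from male C57Bl/6 mice aged 10 months, 1 animal per library. The mothers of 8 animals had received tributyltin (TBT), an organotin and a ligand of RXR and PPAR gamma, at 0.5 mg per kg body weight per day, or 3.07 µM in their drinking water, until weaning. The mothers of the other 7 animals formed the vehicle group. Dosing had thus ended long before the blood was taken, and vehicle 3 was labelled with a liver tumor. The question the design poses is whether the blood RNA of adult offspring differed by the exposure of the mother.

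TEC is a holding class of the GENCODE annotation for transcribed regions, mostly built from spliceless transcript evidence with signs of polyadenylation, that have not yet been accepted as genes of their own. Such a model can mark an independent non-coding RNA, a piece of the unspliced RNA of the gene around it, or an extension of a gene's end. The libraries were made from total RNA, which keeps unspliced and non-polyadenylated RNA together with mature mRNA, so reads in an intron can come from any of these, and the sources cannot be told apart by gene counts. In bulk blood, fewer cells of a type and less RNA per cell cannot be told apart either.

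The last 60 bases of a few models are shown because the 3′ end is where a polyadenylated transcript carries its processing signal. They come from GENCODE release M21 transcripts (GRCm38), are written 5′ to 3′ on the strand of the model, and have any AATAAA or ATTAAA of the last 50 bases in capitals. The first 3 loci are those higher in TBT with the smallest p in the comparison below, Gm43788 is the locus whose groups did not overlap, and Gm45223 and Gm45222 lie in introns of the same gene, Picalm.
Gm42515, in an intron of Camk2d, chr3:126741020-126741079, plus strand: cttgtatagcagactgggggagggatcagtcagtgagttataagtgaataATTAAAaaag
Gm38374, in an intron of Trip12, chr1:84807158-84807217, minus strand: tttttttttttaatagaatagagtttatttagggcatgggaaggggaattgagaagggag
Gm48624, in an intron of Cdk13, chr13:17754516-17754575, minus strand: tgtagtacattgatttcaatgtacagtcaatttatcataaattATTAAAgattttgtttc
Gm43788, in an intron of Med13l, chr5:118605073-118605132, plus strand: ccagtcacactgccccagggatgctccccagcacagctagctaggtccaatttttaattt
Gm45223, in an intron of Picalm, chr7:90137570-90137629, plus strand: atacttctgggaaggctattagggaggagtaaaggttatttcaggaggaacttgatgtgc
Gm45222, in an intron of Picalm, chr7:90150195-90150254, plus strand: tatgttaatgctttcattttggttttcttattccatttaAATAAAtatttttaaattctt
Gm42515, Gm48624 and Gm45222 hold a signal 10, 17 and 21 bases before the end, counted from its first base, and the other 3 hold none in this window. Gm42515 also has 12 A among its last 20 bases.

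Over all 686 loci, 170 (24.8%) held AATAAA or ATTAAA in the last 50 bases on their own strand. This compares with 28.9% of all TEC models, 28.7% of sense intronic, 43.6% of antisense and 40.2% of lincRNA genes. Those comparison sets hold all annotated models, whether or not they met the count rule. The share was 19.3% for loci inside an intron of a gene on the same strand and 44.6% for loci outside genes. At least 12 A in the last 20 bases were found in 9.91% of the loci and 8.88% of all TEC models. The shares were 11.6% of sense intronic, 7.33% of antisense and 6.88% of lincRNA genes. These are matches of letters in the annotated models and not mapped cleavage sites. All 686 loci were annotated as 1 exon block, as were 98.2% of all TEC models. Their median GC content was 41.7%.

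Most of the loci lay inside other genes. An intron of a gene on the same strand held 467 of them (68.1%), beside 48.6% of all TEC models. A further 54 (7.87%) lay in an intron of a gene on the opposite strand, and 35 (5.1%) overlapped an exon on the same strand. Another 74 (10.8%) overlapped an exon on the opposite strand but not on the same strand. Outside genes lay 56 (8.16%), beside 30.1% of all TEC models. Each locus has 1 class, with exon overlap put before introns and the same strand before the opposite. A locus over an opposite-strand exon can thus also lie in a same-strand intron. Of the 56 outside genes, 22 (39.3%) started within 10000 bases past the 3′ end of a protein-coding gene on their strand, and 13.9% of the TEC models outside genes did so. The 467 same-strand intron loci fell in 342 host genes, of which 268 held 1 locus. Members in one host are therefore not independent. Chromosomes 1, 3, 5, 6, 7 and 9 held 475 of the loci (69.2%), and 66.2% of all TEC models.

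Counts behind each locus were low. Library totals ran from 6031530 (vehicle 7) to 11985305 (TBT 3) counts. The 686 loci together took 0.29% ± 0.125 (SD, n = 8) of the TBT counts and 0.214% ± 0.0538 (SD, n = 7) of the vehicle counts. Their mean level was under 5 CPM (counts scaled to library depth, with library sizes adjusted by the TMM method) for 581 loci and above 10 CPM for 35, with a median of 2.07 CPM, or 0.961 CPM per kb of model. All 15 libraries held at least 10 counts for 167 loci. Just inside the threshold, Gm45804 in Nup93, Gm37678 over an exon of Qrich1 and Gm48655 in Ralgapa1 had 109, 115 and 122 counts over all libraries and reached 10 counts in 7. Just outside it, Gm48210 in Cenpo (opposite strand), Gm37581 in Zfp280d and Gm38228 in Nck2 had 184, 174 and 173 counts but reached 10 in 5, 5 and 6 libraries. The rule did not look at the groups, yet 67 loci met it with at least 10 counts in at most 2 vehicle libraries, and 0 met it with that many in at most 2 TBT libraries. A locus can meet the rule on TBT libraries alone with 7 of 8, and on vehicle libraries alone only with 7 of 7.

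A pair of TBT libraries stood apart. TBT 2 and TBT 8 had the lowest TMM factors, 0.404 and 0.528, and gave the loci 0.0921% and 0.107% of their counts, below every vehicle library. They held at least 10 counts for 254 and 353 of the 686 loci. Vehicle 6 stood out less. Its TMM factor was 0.736 and the loci took 0.141% of its counts, both the lowest of that group. It held at least 10 counts for 443 loci, beside 385 in vehicle 7. Counts over the loci and the marker lists are also given without these 3 libraries. The 3 are low in the share of the loci itself, so the values without them are not an independent check.

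The comparison of TBT with vehicle gave a lean to higher values across the TEC loci with no single locus past the test. Of 665 loci tested, 567 (85.3%) lay higher in TBT, beside 59.4% of all 13364 tested genes. At an unadjusted p under 0.05 in edgeR's quasi-likelihood test, 165 lay higher (24.8%), where 4.57% of all genes did, and 0 lay lower, where 1.76% of all genes did. The median log2 fold change was 0.30 (quartiles 0.11 and 0.53) against 0.05 over all genes. After Benjamini-Hochberg adjustment over all genes, edgeR called 0 loci and 0 genes (0.0%), and the smallest adjusted p was 0.207. Limma-voom with sample quality weights called 5 of the loci, where it called 0.165% of all genes, and DESeq2 called 4, where it called 0.142%. These counts are a description, since the loci were chosen with results of these animals known. Some loci also met the count rule mainly through TBT libraries, which can tilt these counts to the higher side. The 165 became 91 without TBT 5 (14.4% of those tested, beside 2.96% of all genes) and 97 without TBT 6 (15.4% beside 3.22%). They became 178 of 679 tested without TBT 2, TBT 8 and vehicle 6 (26.2% beside 7.01%). Without those 3 libraries edgeR called 0 loci and 0.0515% of all genes.

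The size of this lean varied with position. In same-strand introns, 406 of 450 tested loci lay higher and 136 (30.2%) did so at an unadjusted p under 0.05, with a median log2 fold change of 0.39. In opposite-strand introns these were 45 of 54 and 11 (20.4%), with a median of 0.27. Loci overlapping a same-strand exon had 29 of 33 higher and 6 (18.2%) at that p, with a median of 0.22. Loci overlapping an opposite-strand exon had 50 of 72 higher, 7 (9.72%) at that p and a median of 0.09. The loci outside genes had 37 of 56 higher, 5 (8.93%) at that p and a median of 0.10. Without TBT 2, TBT 8 and vehicle 6 the medians were 0.39, 0.36, 0.25, 0.17 and 0.16 in the same order of positions. Higher at that p were 144 of 462 (31.2%), 12 of 54 (22.2%), 8 of 34 (23.5%), 9 of 73 (12.3%) and 5 of 56 loci (8.93%). Of all genes, 7.01% lay higher at that p without these 3 libraries, and 4.57% with all libraries. The difference between these positions was not tested. In the fit of all libraries, 75 of 88 sense intronic genes lay higher (median 0.30), as did 281 of 421 antisense genes (0.13). So did 218 of 327 lincRNA genes (0.12) and 6409 of 11149 protein-coding genes (0.03).

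**Figure D1:**
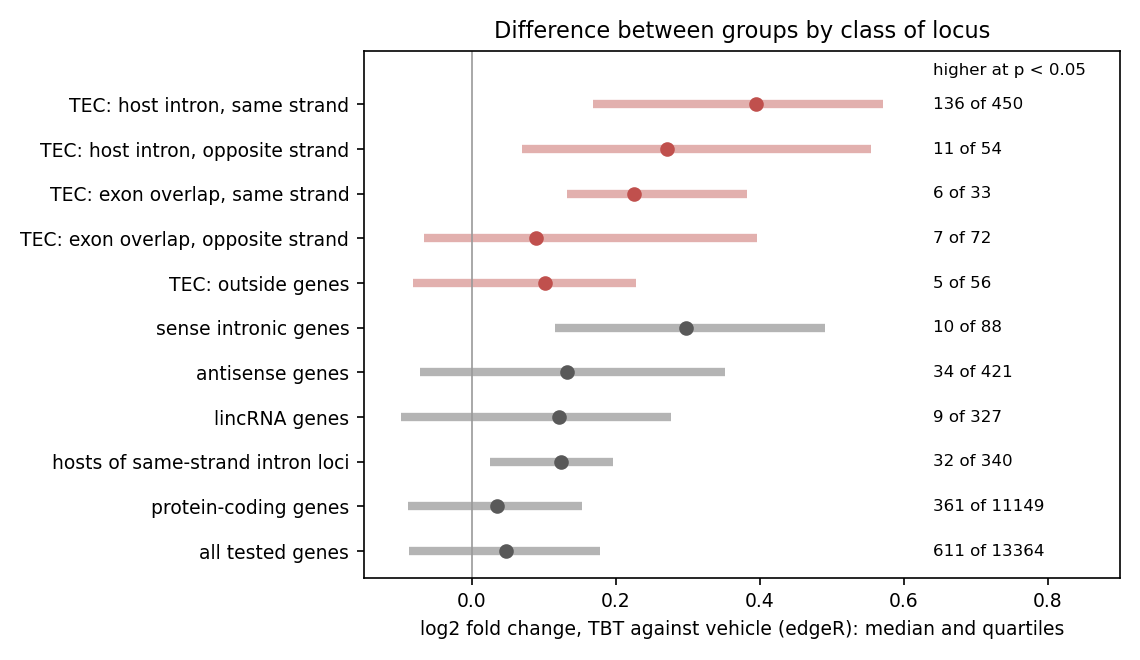
Log2 fold change of TBT against vehicle from edgeR (horizontal axis) for classes of loci and genes, as the median (point) and the quartiles (bar), with TEC loci in red; the text at right counts those higher at an unadjusted p under 0.05. Same-strand intron loci have the highest median of the classes plotted, 0.39, and TEC loci outside genes have 0.10, near the 0.12 of lincRNA genes.

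Loci of low and of high level had similar medians. In 4 bins of about equal size by mean CPM, from lowest to highest, the median log2 fold change was 0.29, 0.28, 0.32 and 0.31, while the number higher at an unadjusted p under 0.05 was 19 of 151, 33 of 171, 45 of 171 and 68 of 172. Among the 167 loci with at least 10 counts in all libraries, which met the count rule in both groups, 154 lay higher, with a median of 0.33. Same-strand intron loci nearest the start of the host, in its middle and nearest its end had medians of 0.38, 0.41 and 0.40. Those with and without a polyadenylation signal had medians of 0.39 and 0.40.

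Animal by animal, the groups overlapped. With each locus centred on its mean over the 15 libraries, on a log2 scale with 0.5 CPM added, the median over the loci lay lowest at -0.20 in TBT 8, at 0.18 in the median TBT animal and highest at 0.35 in TBT 6. In vehicle it ran from -0.21 (vehicle 6) over a median of -0.15 to 0.09 (vehicle 1). So 6 TBT animals lay above every vehicle animal, at 0.10 or more, and TBT 2 and TBT 8 lay among the vehicle animals. TBT 6 held the highest value of 126 loci and TBT 5 that of 88. The lowest value fell to vehicle 7 in 129 loci, to TBT 8 in 125 and to TBT 2 in 116. For loci outside genes, the 2 lowest animals of all 15 were TBT 2 (-0.32) and TBT 8 (-0.29).

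**Figure D2:**
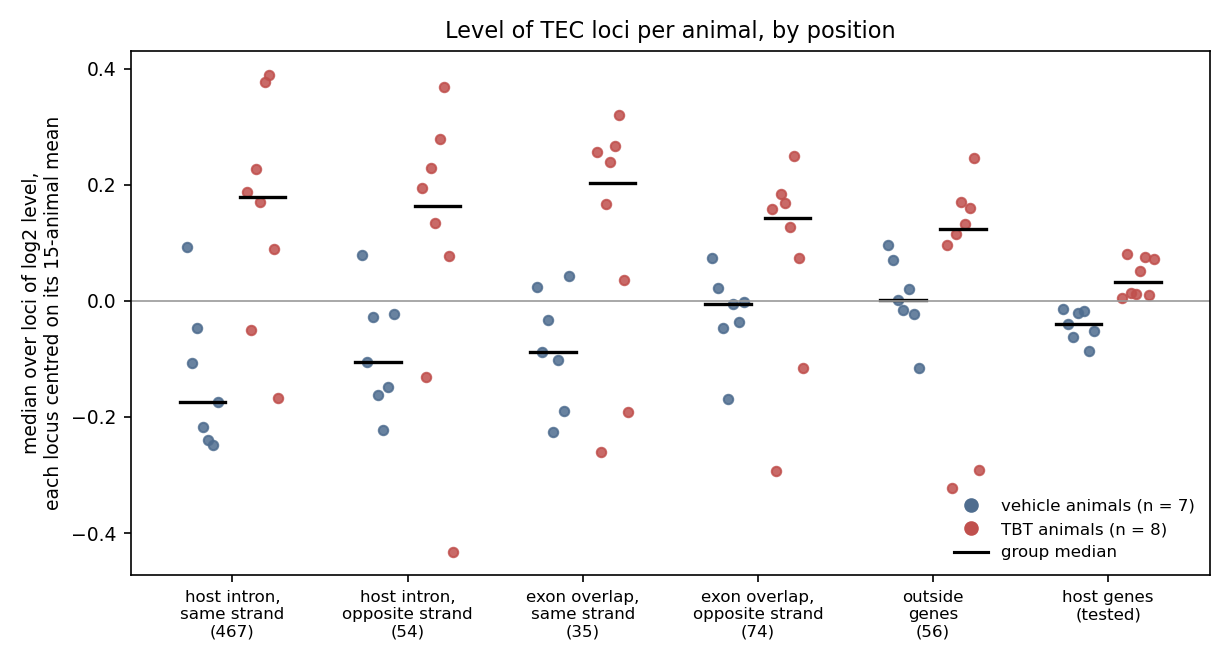
Median over loci of the log2 level of each animal, every locus centred on its 15-animal mean (vertical axis), for TEC loci by position and for the tested hosts of the same-strand intron loci (horizontal axis, number of loci in brackets); points are animals, vehicle in blue and TBT in red, and black lines are group medians. For same-strand intron loci the TBT animals run from -0.17 to 0.39 and the vehicle animals from -0.25 to 0.09.

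The locus with the smallest p was Gm42515, a model of 3583 bases on the plus strand in an intron of Camk2d, which encodes a subunit of the calcium/calmodulin-dependent kinase CaMKII. It lay lowest at 4.38, at a median of 5.66 and highest at 6.59 CPM in TBT, and at 2.10, 2.88 and 4.58 CPM in vehicle. The groups met only through vehicle 3, the animal labelled with a tumor, which had the 4.58. Its log2 fold change was 0.82 (SE 0.164, edgeR adjusted p = 0.207), and limma-voom (0.86, adjusted p = 0.027) and DESeq2 (0.79, adjusted p = 0.00492) called it. Over all settings tried, its adjusted p ran from 0.00492 to 0.745.

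Gm38374, in an intron of Trip12, the gene of an E3 ubiquitin ligase, lay at 2.63, 3.40 and 3.86 CPM (lowest, median, highest) in TBT and at 0.887, 1.93 and 2.63 CPM in vehicle. The groups overlapped by the single pair of TBT 2, the lowest TBT animal, and vehicle 1, the highest vehicle animal. The log2 fold change was 0.87 (SE 0.201, edgeR adjusted p = 0.41), and DESeq2 called it (adjusted p = 0.0157). Gm48624, in an intron of Cdk13, the gene of a kinase of RNA polymerase II, lay at 5.55, 7.06 and 8.98 CPM in TBT and at 3.92, 4.71 and 5.81 CPM in vehicle. TBT 2 and TBT 7 lay within the vehicle range. Its log2 fold change was 0.59 (SE 0.143, edgeR adjusted p = 0.542), and both limma-voom (adjusted p = 0.0437) and DESeq2 (adjusted p = 0.0424) called it.

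Gm43788, in an intron of Med13l, the gene of a Mediator subunit, was the 1 locus tested whose groups did not overlap, as for 0.0973% of all genes higher in TBT, and no locus had groups apart on the lower side, as 0.015% of all genes had. Its TBT values were 6.24 at the lowest, 6.41 at the median and 9.02 CPM at the highest, and its vehicle values 2.31, 4.30 and 5.74 CPM. The other 7 TBT animals lay within 6.24 to 6.84 CPM, so TBT 6 stood alone at the top. The log2 fold change was 0.67 (SE 0.17, edgeR adjusted p = 0.542).

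Gm43071, in Dram2, the gene of a membrane protein of autophagy, lay at 7.34 to 12.4 CPM in TBT and at 3.68 to 7.62 CPM in vehicle, with a log2 fold change of 0.67. Gm45223, in Picalm, the gene of a clathrin assembly protein, lay at 18.5 to 40.9 CPM and at 16.1 to 24.5 CPM (0.61), with TBT 7 and TBT 8 inside the vehicle range. Gm43461, on chromosome 5 outside genes, lay at 1.66 to 2.94 CPM and at 0.621 to 1.94 CPM (0.95). Gm37666, in the ceramide synthase gene Cers6, had the highest log2 fold change of the loci, 1.80 (SE 0.466), on few counts, 0.519 to 2.70 CPM in TBT and 0.0887 to 0.876 CPM in vehicle. It reached 10 counts in 6 TBT libraries and 1 vehicle library, so it met the count rule mainly through TBT, and it fell below the filter in 7 of 24 other settings. The groups of these 4 loci overlapped, and the edgeR adjusted p of each was 0.542.

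**Figure D3:**
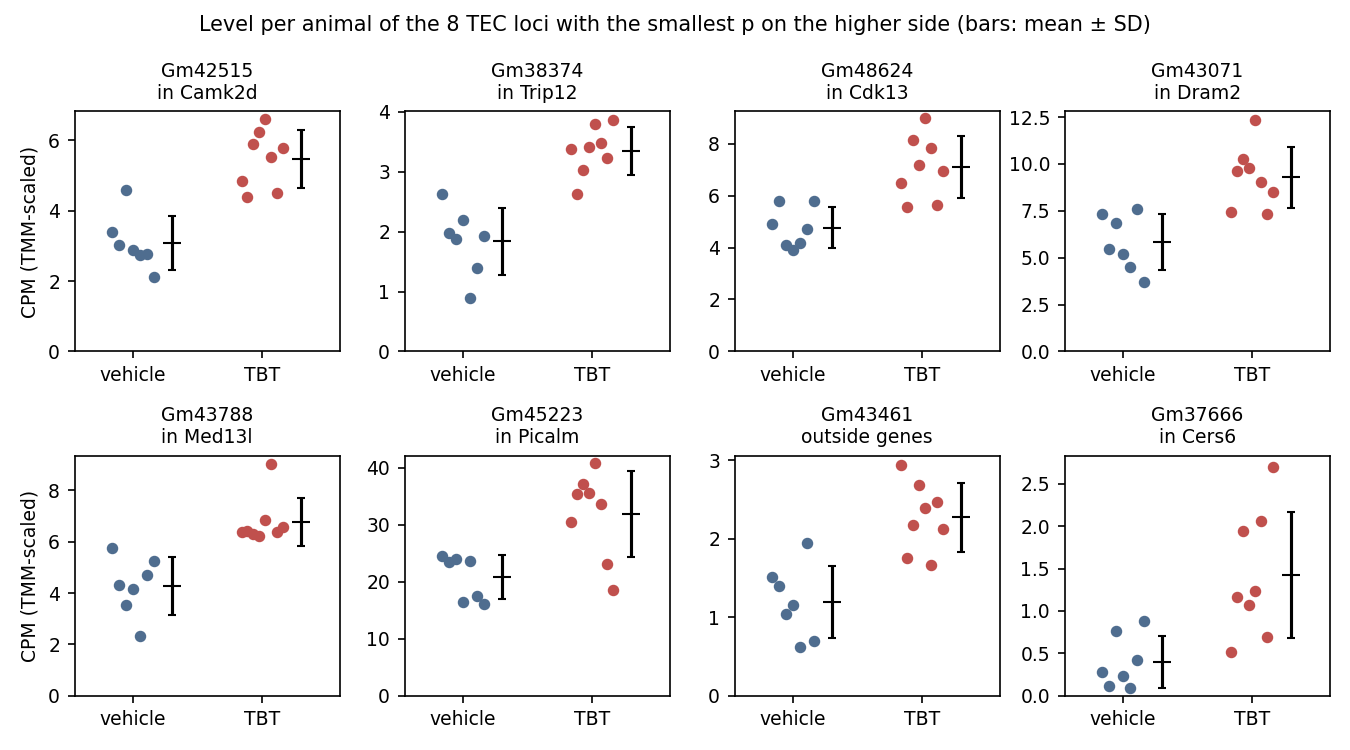
Level in CPM on TMM-scaled library sizes (vertical axes, from 0) of the 8 loci higher in TBT with the smallest p, per animal (points, vehicle in blue and TBT in red), with the mean ± SD beside them. In Gm43788 the lowest TBT animal, 6.24 CPM, lies above the highest vehicle animal, 5.74 CPM; in the other 7 loci the groups overlap.

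Beside Gm42515, Gm48624 and Gm45223, limma-voom called Gm45221 in Picalm (0.59, adjusted p = 0.0437) and Gm44667 in an intron of Mef2a, a transcription factor gene (0.83, adjusted p = 0.0437). DESeq2 also called Gm43421 in Zfp644 (0.82, adjusted p = 0.0322). Gm42515 and Gm48624 were called by both tools. Every locus called by these tools lay higher in TBT, where limma-voom called 0.142% and DESeq2 0.135% of all genes.

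Hosts with several loci showed them side by side. The 14 genes described here with at least 4 loci in their introns held 68 loci, of which 66 were tested. In edgeR, 66 lay higher in TBT and 34 did so at an unadjusted p under 0.05. Of all loci tested, 85.3% lay higher and 24.8% did so at that p, and of all genes 59.4% and 4.57%. Over 24 other settings, 0 of the tested loci in these hosts lay lower in 7, 1 lay lower in 13 and 2 lay lower in 4. The 13 included upper-quartile normalization, haemoglobin genes left out, the replicate block and limma-voom. The 4 were the fits without TBT 5, without TBT 6, without TBT 8, and without TBT 2, TBT 8 and vehicle 6. None of these hosts passed the test. Loci in 1 host can share its RNA, so they are not taken as separate replicates. In Rabgap1l 5 of 6 loci lay on the strand of the host, in Kansl1l and 2010111I01Rik 3 of 4. In the other hosts all did.

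Tcf12, a basic helix-loop-helix transcription factor gene, held 7 loci with log2 fold changes from 0.29 to 0.91, while the host's log2 fold change was 0.09 (SE 0.109), from 43.9 ± 4.52 CPM (SD, n = 7) in vehicle and 46.5 ± 7.65 CPM (SD, n = 8) in TBT. The 6 loci of Camk2d ran from 0.38 to 0.88 beside 0.26 for the host. The 6 loci of Cers6 ran from 0.20 to 1.80 beside 0.46 for the host, the highest value of the 14 hosts. In Med13l, 5 loci ran from 0.58 to 0.80 while the host stood at 112.5 ± 22.8 and 111.2 ± 8.48 CPM (0.01).

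Maml3, the gene of a Notch coactivator, showed the same with 4 loci from 0.53 to 1.23 and a host value of 0.00 (SE 0.18). The 5 loci of the kinase gene Prkcb ran from 0.21 to 0.50 beside -0.05. In Akap13, which encodes an anchoring protein of protein kinase A, 4 loci ran from 0.23 to 0.78 beside 0.11. In Rabgap1l the 6 loci spread from 0.06 to 1.21 beside 0.14. The 4 loci of Satb1, a chromatin organiser of T cells, ran from 0.18 to 0.37 beside 0.13. The tested loci of Ncoa2 ran from 0.05 to 0.63 beside 0.16, and those of Atp8a1 from 0.12 to 0.70 beside 0.19. Those of Kansl1l ran from 0.01 to 0.60 beside 0.27, and those of 2010111I01Rik from 0.11 to 0.45 beside 0.04. The lowest locus thus lay below its host in Ncoa2, Atp8a1 and Kansl1l, as in Cers6 and Rabgap1l.

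In Picalm the 4 loci were Gm45223, Gm45222, Gm45221 and Gm45220, in order along the plus strand of chromosome 7, from chr7:90132492-90137629 to chr7:90201278-90203786. Their TBT means were 31.9 ± 7.50, 24.2 ± 5.29, 17.8 ± 3.75 and 7.79 ± 1.62 CPM (SD, n = 8). Their vehicle means were 20.8 ± 3.88, 18.1 ± 1.42, 13.1 ± 1.62 and 5.38 ± 1.01 CPM (SD, n = 7). Log2 fold changes of 0.61, 0.42, 0.46 and 0.54 lay above the 0.33 (SE 0.252) of Picalm itself, which varied more, 488.2 ± 238.0 CPM in TBT against 387.1 ± 42.0 CPM in vehicle.

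**Figure D4:**
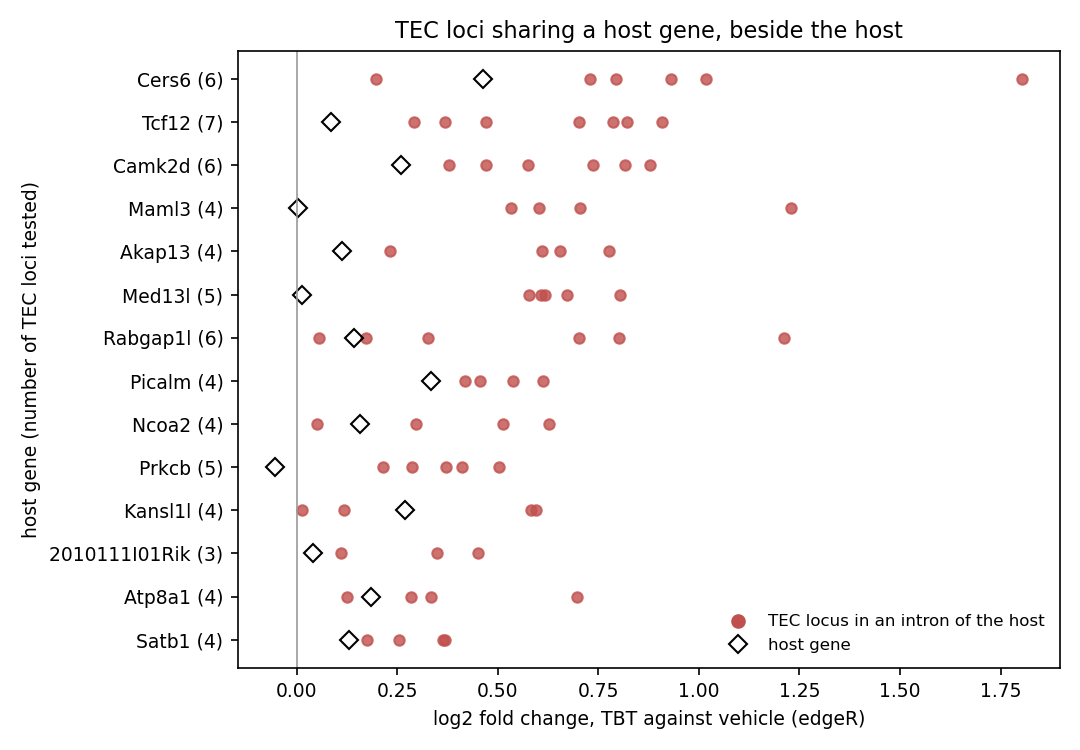
Log2 fold change of TBT against vehicle from edgeR (horizontal axis) for each tested TEC locus in an intron of the 14 hosts described with at least 4 loci (red points) and for the host itself (open diamonds); the vertical axis lists the hosts with the number of loci tested. All 66 loci lie above 0 in this fit (1 lies below 0 in 13 and 2 in 4 of 24 other settings). Of all 665 loci tested, 85.3% lie above 0. The hosts lie between -0.05 and 0.46.

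Set against their hosts over all same-strand intron pairs, the loci lay further from 0 on the higher side. In 448 pairs over 327 hosts, the median log2 fold change was 0.39 for the loci and 0.13 for the hosts, and the locus exceeded its host in 351 pairs (78.3%). At an unadjusted p under 0.05, 136 loci lay higher, 50 pairs had a host that lay higher, and 26 pairs had both. A host with several loci is counted once per pair here. Of the 340 distinct hosts tested, 275 (80.9%) lay higher and 32 (9.41%) did so at that p. Of all genes, 59.4% and 4.57% did. In opposite-strand introns the locus exceeded the host in 64.2% of 53 pairs (medians 0.26 and 0.14). For loci overlapping a same-strand exon it did so in 82.8% of 29 pairs (medians 0.22 and 0.13). For loci overlapping an opposite-strand exon it did so in 56.9% of 58 pairs (medians 0.07 and 0.08). The difference between a locus and its host was not tested.

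Centred in the same way as the loci, the tested hosts of the same-strand intron loci had medians from 0.01 to 0.08 in the TBT animals and from -0.09 to -0.01 in the vehicle animals. TBT 2 and TBT 8 were at 0.08 and 0.07 for the hosts. For the same-strand intron loci they were at -0.05 and -0.17, within the vehicle range of -0.25 to 0.09.

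On a per-length scale the loci were much lower than their hosts. The median level of the same-strand intron loci was 1.08 CPM per kb and that of their hosts 5.40 CPM per kb. Over all TEC models in hosts above 5 CPM per kb, whether or not they met the count rule, the median level was 12.7% of the host for 288 same-strand intron models, 9.01% for 34 opposite-strand intron models and 4.38% for 52 models over an opposite-strand exon. Of those 288, 242 (84.0%) met the count rule. No source used here says whether counting was by strand, so loci opposite a gene may hold reads of that gene.

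**Figure D5:**
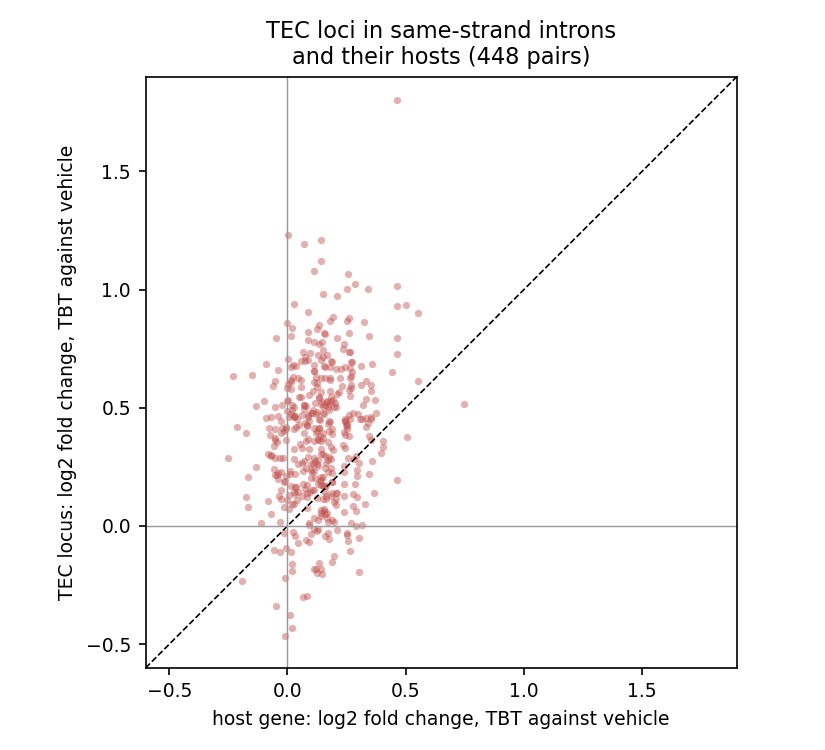
Log2 fold change of TBT against vehicle from edgeR of each tested same-strand intron locus (vertical axis) against that of its host gene (horizontal axis); each point is 1 of 448 pairs and the dashed line marks equal values. In 351 pairs the point lies above the line, and the topmost point is Gm37666 in Cers6, at 1.80 and 0.46.

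The few loci named for the highest levels did not all lie higher in TBT. In the highest of the 4 bins by mean CPM, 158 of 172 loci lay higher (91.9%). Of all loci tested 85.3% did, and of all genes 59.4%. Per kb, Gm37416, a model of 318 bases opposite an intron of Malrd1, was highest at 98.6 CPM per kb. It lay at 17.1, 20.9 and 78.7 CPM (lowest, median, highest) in TBT and at 13.7, 26.2 and 42.0 CPM in vehicle. TBT 2 (75.3 CPM) and TBT 8 (78.7 CPM) were the only animals above the highest vehicle animal. Its log2 fold change was 0.30 (SE 0.379, edgeR adjusted p = 0.965), and it turned to -0.42 without TBT 2, TBT 8 and vehicle 6. Malrd1 itself was at 0.0113 CPM per kb.

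Gm42870, opposite an intron of the lincRNA gene Gm43388, was next at 17.9 CPM per kb. It lay at 33.6 to 81.5 CPM in TBT and 46.8 to 79.8 CPM in vehicle, with a log2 fold change of -0.03 that changed sign between settings. A530030E21Rik, outside genes on the same stretch of chromosome 16, was at 15.7 CPM per kb and a log2 fold change of -0.11. A130071D04Rik, in an intron of Ptprc, the gene of the leukocyte phosphatase CD45, was at 10.3 CPM per kb. It lay at 38.0, 68.7 and 101.9 CPM in TBT and 40.7, 47.9 and 69.3 CPM in vehicle. TBT 8 was the lowest animal of all and TBT 5 the highest, and the log2 fold change was 0.49 (SE 0.178, edgeR adjusted p = 0.725) beside 0.17 for Ptprc.

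Gm37082, in Fli1, an ETS transcription factor gene, lay at 13.9 to 26.5 CPM in TBT and 11.2 to 20.04 CPM in vehicle, with a log2 fold change of 0.45 beside -0.03 for Fli1. Gm37589, in Mbnl1, the gene of a splicing regulator, lay at 21.02 to 33.5 CPM and 11.2 to 24.8 CPM (0.53 beside 0.19). Gm49553, in the adaptor gene Grap2, lay at 13.7 to 24.2 CPM and 13.7 to 24.0 CPM (0.02, which changed sign between settings, beside -0.03). The groups overlapped in each of these loci, and the edgeR adjusted p was at least 0.645.

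On the lower side, no locus had an unadjusted p under 0.05. The smallest p belonged to Gm45745, opposite an intron of 5830408C22Rik, at 3.67, 6.76 and 10.2 CPM in TBT and 7.18, 8.66 and 12.9 CPM in vehicle (log2 fold change -0.36, SE 0.203). For 2310043P16Rik, which overlaps an exon of Lsm14a on the opposite strand, all 8 TBT animals (4.67 to 9.73 CPM) lay below the vehicle median of 10.1 CPM, within a vehicle range of 7.72 to 12.6 CPM (-0.26). 5730488B01Rik, opposite an exon of the B cell transcription factor gene Pax5, lay at 3.05 to 6.14 CPM and 3.76 to 8.23 CPM (-0.33), beside -0.17 for Pax5. The next 3 were intron loci, Gm43039 in Rchy1 (-0.30), Gm43628 in Rfc1 (-0.34) and Gm42467 in Tmem248 (-0.47). Gm42467 rested on vehicle 7 at 5.96 CPM, and its value was -0.01 without that animal. The edgeR adjusted p of these 6 loci ran from 0.845 to 0.909.

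Markers of the blood cell types were present in every library, and some differed in the libraries that stood apart. The summed level of 5 B cell markers ran from 349.8 to 934.0 CPM in TBT and 547.2 to 784.3 CPM in vehicle, with TBT 2 and TBT 8 at 349.8 and 418.6 CPM, and 1 of 5 lay higher in TBT. The 5 T cell markers ran from 49.8 to 122.3 CPM and 64.2 to 124.5 CPM (2 of 5 higher), and the 5 NK cell markers from 49.6 to 82.2 CPM and 38.5 to 79.2 CPM (4 of 5 higher). The 5 monocyte markers ran from 706.6 to 1651 CPM and 650.8 to 1251 CPM (5 of 5 higher), and the 5 neutrophil markers from 307.6 to 677.5 CPM and 359.6 to 906.3 CPM (4 of 5 higher). The 5 platelet markers ran from 1836 to 11200 CPM and 1966 to 5402 CPM (3 of 5 higher, and 0 of 5 without TBT 2, TBT 8 and vehicle 6), highest in TBT 2 and TBT 8, with medians of 2550 and 4968 CPM. The 5 erythroid markers ran from 139600 to 1008000 CPM and 165100 to 410100 CPM (5 of 5 higher, and 0 of 5 without the 3 libraries), again highest in TBT 2 and TBT 8, with medians of 204000 and 280800 CPM; a sum on scaled library sizes is not bounded by the library total. The 5 hepatocyte markers, from cells that blood should lack, ran from 0.95 to 496.8 CPM and 3.29 to 807.8 CPM (0 of 4 tested higher), and 1 of them was read in all libraries. Without the 3 libraries the numbers higher were 1 of 5 B cell, 3 of 5 T cell, 4 of 5 NK cell, 4 of 5 monocyte, 4 of 5 neutrophil and 0 of 3 tested hepatocyte markers. Without haemoglobin genes, which took 28.8% to 50.8% of a library, the share of the TEC loci was 0.438% ± 0.159 (SD, n = 8) in TBT and 0.333% ± 0.0687 (SD, n = 7) in vehicle. The part of these differences in the values of the TEC loci was not tested.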

How the data were processed

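Illumina TruSeq Stranded Total RNA libraries were made from DNase-treated whole-blood RNA (RNeasy) of 15 mice, per the labels' protocols. Reads were processed with Trim Galore, HISAT2 and featureCounts on mm10, per the submitters' processing notes. No source used here gives tool versions, annotation release or strand setting. The authors deposited whole-number counts per gene, not normalized, for 55536 genes, and all were used as deposited. Columns were matched to animals by the sample description. All 55536 identifiers and biotypes equalled those of GENCODE M21 (GRCm38), which gave positions, hosts and sequences. For a locus in an intron, the host was the annotated gene whose span held the locus, protein-coding genes first, then the shortest. For a locus over an exon, it was the gene of that exon, protein-coding genes first, then the longest overlap. Such a gene need not hold the whole locus.

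Library totals ran from 6031530 to 11985305 counts. The groups were compared with edgeR 4.0.16 (R 4.3.3): filterByExpr by group (13364 genes kept, 665 of the 686 loci), TMM, robust quasi-likelihood fits without covariates, and a Benjamini-Hochberg adjusted p (over all genes kept) under 0.05 as the call. The common biological coefficient of variation was 0.29, and the standard error of a locus was 0.281 at the median. Standard errors came from the quasi-likelihood F. P-values rest on the spread between these animals, each taken as independent. Exposure was given to the mothers, and no label used here names litters. If animals of a group shared a mother, the p-values could be too small. The scripts were tested on simulated data. No library was a copy of another (chi-square per gene at least 10.8 between libraries of a group).

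Loci and lists were chosen with earlier results of these data known, so counts over the loci stand beside the same over all genes and got no test. Named loci were the 8 higher and 6 lower with the smallest p, and the 6 highest by CPM and by CPM per kb, with their hosts and every host of at least 4 loci but 1, which is not reported here. Marker lists had 5 genes each (erythroid, platelet, neutrophil, monocyte, B cell, T cell, NK cell, hepatocyte). Alternatives were other scalings and filters, DESeq2 1.42.0, limma 3.58.1 (voom with sample quality weights), a replicate block, haemoglobin genes left out, and libraries left out.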

Additional observations from a re-analysis of the deposited data

Results flagged for a closer look

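Among 48 groups of 7 or 8 animals looked at, 44 for the named loci and 4 for summaries over all loci, 2 held an animal far from the others by Dixon's test, which chance meets in about 1 in 20 groups. Gm43788, in Med13l, was at 9.02 CPM in TBT 6 and at 6.24 to 6.84 CPM in the other TBT animals. Gm42467, in Tmem248, was at 5.96 CPM in vehicle 7 and at 0.923 to 1.94 CPM in the other vehicle animals.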

How the results depend on the processing

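For the 22 named loci, 521 values were computed over 24 other settings. Of these, 495 kept their direction and their side of the threshold, 6 became called and 20 changed sign. Gm42870 turned to 0.0413 with the replicate block, 0.0629 with limma-voom, 0.140 without TBT 2, TBT 8 and vehicle 6, and ran from -0.101 to 0.0392 with single animals left out. Gm37416 turned to -0.127 with the replicate block, -0.341 with limma-voom and -0.419 without those 3 libraries. Gm49553 turned to -0.0141 with upper-quartile normalization, -0.0426 with the block, -0.0002 without haemoglobin genes, -0.138 with limma-voom and -0.167 without the 3 libraries, and ran from -0.0599 to 0.103 with single animals left out. The cause was not tested. The count of genes called, 0 in edgeR, was 2 with no filter on low counts, 1 with the replicate block, 7 without the 3 libraries (0.0515%), 22 with limma-voom and 19 with DESeq2. The count of TEC loci called was 5 with limma-voom, 4 with DESeq2 and 0 in the other settings. The loci higher at an unadjusted p under 0.05 numbered 91 to 190 with single animals left out (14.4% to 28.8%, beside 2.96% to 5.67% of all genes). They numbered 151 with upper-quartile normalization (22.7% beside 3.41%) and 165 with RLE size factors (24.8% beside 4.5%). Limma-voom gave 246 (37.0% of the loci, beside 10.8% of all genes), where edgeR gave 24.8% beside 4.57%. The loci lower at that p numbered 0 in edgeR, 1 with no filter, 1 with limma-voom, 2 without the 3 libraries, and 0 to 1 with single animals left out. The median log2 fold change over the loci was 0.26 to 0.35 with single animals left out. With hosts restricted to protein-coding genes, 72.0% of the loci lay in an intron, where 75.9% did with all hosts. Replicate numbers are shared by the groups, but same-numbered animals did not deviate together (correlations from -0.235 to 0.506, and 1 of 7 numbers matched itself best). The block, with 184 loci higher at that p (27.7%, beside 5.93% of all genes), is therefore given only as 1 of the other settings. The 20 bases past the 3′ end were not used here, and the last 20 bases of the model took their place after the data had been seen. A count of at least 10 A there was found in 21.3% of the loci and 6 A in a row in 5.54%. Depth limits the 581 loci under 5 CPM most.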

Other observations

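Malat1 and Neat1, long non-coding RNAs known to stay in the nucleus, were looked at after their values had been seen. The log2 fold change of Malat1 was 0.03 (SE 0.301), from 4823 ± 698.1 CPM (SD, n = 7) in vehicle and 4929 ± 1086 CPM (SD, n = 8) in TBT. That of Neat1 was 0.11 (SE 0.251), from 316.5 ± 63.8 CPM in vehicle and 342.0 ± 141.5 CPM in TBT. The edgeR adjusted p was 0.997 and 0.984.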
